A study of Mus musculus with 5 samples.

Results

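The deposited list of SOX9-bound regions in the atrioventricular canal (AVC) of the mouse heart held 2603 peaks, and every line of it was used. Together with the list from limb buds and the list of input regions from heart, the study deposited 26547 such lines. ChIP-seq, the sequencing of DNA recovered by immunoprecipitation of a protein with its chromatin, was carried out on AVCs dissected by hand from wild type C57BL/6 embryos at embryonic day 12.5, with a rabbit polyclonal antibody to SOX9. The AVC is the part of the heart tube where the endocardial cushions form. The labels give valve mesenchyme as the cell type, but the AVC was taken whole and no cell sort is described, so myocardium, endocardium and other cells of the region can have added chromatin. Other samples were used as well. Input chromatin, which was not precipitated, came from whole wild type C57BL/6 hearts at embryonic day 10.5. RNA came from AVCs at embryonic day 12.5 labelled WT (Sox9fl/fl:+/+, with floxed Sox9 alleles and no Cre). The SOX9 list from limb buds at embryonic day 12.5 entered only the count of lines above and the chromosome spans below. Each of these was 1 sample, so no value has an error between replicates. The intervals given are 95% intervals for counting error only, and neighbouring peaks of 1 locus are not independent. A list of positions holds no marker of a cell type. In the separate WT RNA sample of the same region and stage, Sox9 stood at 36.7 nFPKM (FPKM normalized further by the authors), so the factor itself was expressed there.

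SOX9 belongs to the SOX family, whose members bind DNA through a high mobility group domain that sits in the minor groove and bends the helix. It is the central transcription factor of cartilage, and in the heart it is made by the endocardial cushion mesenchyme that forms the valves and septa, where it acts on the growth of that mesenchyme and on its matrix genes. In cartilage SOX9 is known to act through several enhancers spread over long stretches around a target gene, often with SOX5 and SOX6, which makes the spacing of its binding sites of interest. The positions here are in the mouse build mm9, named in the submitters' processing notes. No sequence or gene annotation of that build was used, so peaks are described by position, height and spacing, and no gene is assigned to a peak.

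Most AVC peaks were low and narrow. The height is the authors' own value for each peak, and the sources used here do not define it. It started at 8, with 1137 peaks (43.7%, Wilson interval 41.8 to 45.6) at that lowest value, and 1909 peaks (73.3%) stood at 10 or less. The median was 9, the 90th percentile 17 and the 99th percentile 44. Above a height of 20 the numbers thinned out slowly. There were 100 peaks of height 20 to 29, 56 of 30 to 39 and 30 of 40 to 49, followed by 9 peaks at 50 or more. Peaks of height 20 or more are called tall from here on, and they made up 195 of the list (7.49%, Wilson interval 6.54 to 8.57). Since so many peaks sit at the lowest value that was listed, a small change of the threshold would change the list a great deal.

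**Figure D1:**
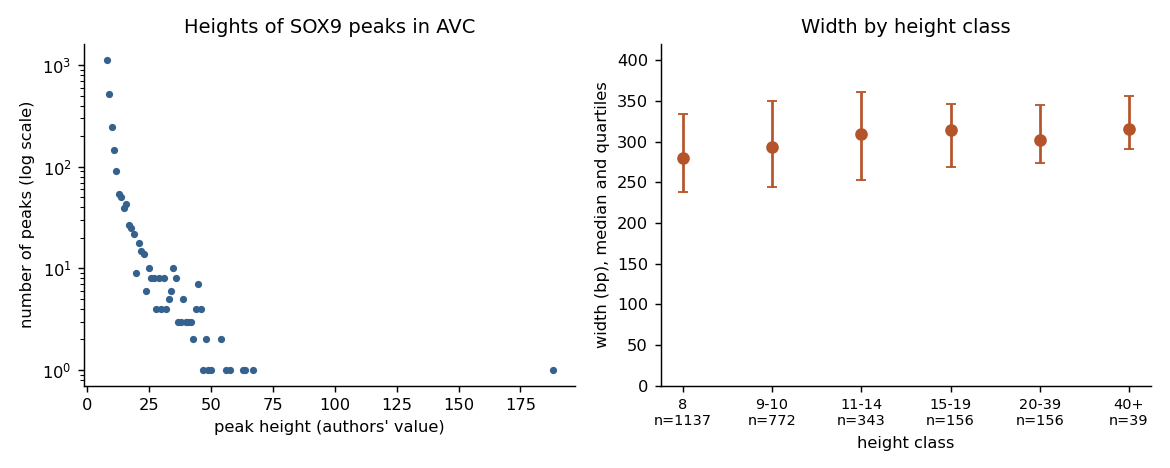
Left, number of peaks (log scale) at each height; right, median width in bp with quartiles in 6 height classes. The lowest height, 8, holds 1137 peaks and 1 peak stands alone at 188, while the median width stays between 280 and 316 bp in all classes.

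Widths ran from 200 to 982 bp with a median of 292 bp and quartiles of 245 and 346 bp. Height and width moved together only weakly, with a Spearman rho of 0.14 across the 2603 peaks of this 1 library. The median width was 280 bp at height 8, 309 bp at heights 11 to 14 and 316 bp at 40 or more. Most wide peaks were low. Of 88 peaks at least 500 bp wide, 8 were tall, and their median height of 9 was that of the whole list. They lay near other peaks more often than the rest, since 30 of the 88 (34.1%, Wilson interval 25.04 to 44.5) belonged to a cluster of peaks as defined below, against 16.3% of all peaks. They also overlapped an input region in 16 of 88 cases, against 222 of 2603 peaks (8.53%) of the list, and the part of the input in this was not tested. Input regions made up 3.39% to 6.27% of the span of an autosome. The overlapping share of the list was 6.24% at height 8 (Wilson interval 4.98 to 7.80) and 11.7% at heights 11 to 14 (8.68 to 15.5). It was 9.62% at heights 20 to 39 (5.91 to 15.3) and 7.69% at 40 or more (2.65 to 20.3). The widest peak, at chr8:129357184-129358165, measured 982 bp but stood at the lowest height of 8, with another peak 3.22 kb away in a cluster of 3. The next widest, at chr14:56178955-56179793 (839 bp) and chr12:100883213-100884011 (799 bp), both had a height of 16 and no other peak within 250 kb.

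A single peak stood far above the rest. The peak at chr10:52106783-52107159, 377 bp wide, had a height of 188, which was 2.81 times the next highest value. It overlapped no input region, and its nearest neighbour lay 74.5 kb away, outside the distance that defines a cluster. A peak of chromosome 18 followed with a height of 67, and a second peak lay 7.19 kb from it. The third, at chr10:80755847-80756162, reached 64 and formed a cluster with a peak 41.0 kb away. The peaks at chr9:107471146-107471404 (height 63), chr10:8605863-8606146 (height 58) and chr8:119445330-119445646 (height 56) stood alone, the last of them 1240 kb from any other peak. Further peaks among the 10 tallest were those at chr5:140894709-140895221 and chr7:26004126-26004405 (both 54), chr5:115224534-115224917 (50) and chr2:84555619-84555968 (49). Of these 10 peaks 4 belonged to clusters, and 1, at chr5:140894709-140895221, overlapped an input region. Chromosome 10 carried 3 of the 5 tallest peaks.

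Peaks were found on all autosomes and on X and Y, at densities of 0.79 to 1.40 per Mb among the autosomes. The length of a chromosome was taken as the span between the first and the last region of any of the 3 deposited lists. Over the 19 autosomes there were 2535 peaks in 2411 Mb, or 1.05 per Mb (exact Poisson interval 1.01 to 1.09). Chromosome 17 was the densest with 1.40 peaks per Mb (interval 1.17 to 1.66), followed by chromosome 19 with 1.37 (1.09 to 1.71) and chromosome 11 with 1.27 (1.08 to 1.49). Chromosome 14 was the sparsest autosome with 0.79 per Mb (0.64 to 0.97), next to chromosome 12 with 0.86 (0.70 to 1.04) and chromosome 1 with 0.88 (0.75 to 1.02). The intervals of chromosomes 17, 19 and 11 lay above that of chromosome 14, whereas most other neighbours in this order had intervals that overlapped widely.

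Autosomes with more genes per Mb carried more peaks per Mb, whether expressed genes or all protein-coding genes were counted. Expressed genes were counted by chromosome alone, from WT AVC transcripts of at least 1 nFPKM whose chromosome is given by RefSeq (14659 of 14697 transcripts placed, 13540 genes at that level). Across the 19 autosomes the Spearman rho between peaks per Mb and expressed genes per Mb was 0.78 (Pearson r 0.81). Without chromosomes 11 and 19, the 2 farthest from the median gene density, rho was 0.70. With all protein-coding genes per Mb, expressed or not, rho over the 19 autosomes was 0.73 (Pearson r 0.77). A relation to expression can therefore not be told apart from one to gene density. The rho with input regions per Mb was lower, at 0.52, and rose to 0.71 when chromosome 7 was left out. The base composition and mappable length of a chromosome can enter both measures, and peaks, input regions and RNA each come from 1 sample. These values therefore describe the list and carry no p-value. The rise in peaks was less than in proportion to genes. Chromosome 11, with 9.43 expressed genes per Mb, had 13.5 peaks for each 100 expressed genes, while chromosome 18, with 4.00 expressed genes per Mb, had 25.6.

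**Figure D2:**
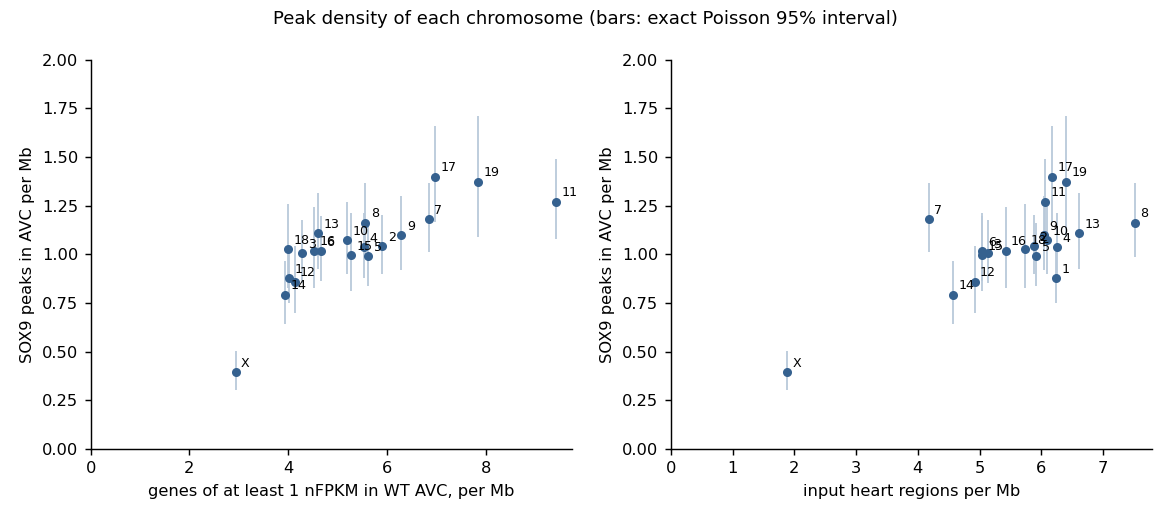
Peaks per Mb on each chromosome (points, labelled by chromosome; bars, exact Poisson 95% interval; Y not shown) against expressed genes per Mb, left, and against input regions per Mb, right. Chromosomes 17, 19 and 11 stand at the upper right of the left panel, and X lies below all autosomes at 0.39 peaks per Mb.

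The X chromosome had few peaks, and the input had few regions there as well. X carried 64 peaks in 163 Mb, 0.39 per Mb (exact Poisson interval 0.30 to 0.50), which is 0.37 of the autosomal density (exact interval of the ratio 0.29 to 0.48). Input regions on X stood at 1.89 per Mb against 5.73 on autosomes, a ratio of 0.33 (0.29 to 0.37). The ratio of peaks was 0.40 (0.30 to 0.51) when peaks over input regions were left out. Input regions on X were also narrower, with a median width of 794 bp against 6895 bp on autosomes. They made up 0.26% of the span of X, against 3.39% to 6.27% of the span of an autosome. By covered length the input was thus lower on X than its count of regions shows. The part of what lowers the input on X in the low density of peaks was not tested. The heights on X did not stand apart from the list, with 30 of 64 peaks at the lowest height (46.9%) and 3 tall peaks. Both of the longest stretches with no peak were on X. They were chrX:55731615-70271964 (14.5 Mb, with 1 input region) and chrX:73649254-84483556 (10.8 Mb, with 2 input regions). The longest on an autosome, chr12:17168632-25447579, measured 8.28 Mb and held 10 input regions, or 1.21 per Mb. On Y there were 4 peaks within 1.64 Mb, of heights 8 to 11, and 2 of them overlapped input regions.

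Neighbouring peaks were usually far apart, but short distances were more common than the average density would give. No peaks overlapped or touched. Of 2582 distances from the end of a peak to the start of the next on the same chromosome, the median was 587 kb, the mean 981 kb and the quartiles 191 and 1359 kb. The next peak lay within 1 kb in 22 cases, within 10 kb in 60, within 50 kb in 235 (9.10%, Wilson interval 8.05 to 10.3) and within 100 kb in 400 (15.5%). To read these shares, the part of the sequence between peaks that lies within the same distance after a peak was computed. The 50 kb after each peak made up 4.85% of that sequence, so the share of distances within 50 kb was 1.88 times the share of sequence. The same ratio was 8.41 up to 1 kb, 1.63 between 1 and 10 kb and 1.76 between 10 and 50 kb. It fell to 1.43 between 50 and 100 kb, to 1.30 between 100 and 200 kb and to 1.03 between 200 and 500 kb.

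The density of peaks around a peak, counted on both sides and between midpoints, showed over what range peaks gathered. At 10 to 50 kb there were 1.90 peaks per Mb (exact Poisson interval 1.64 to 2.18), 1.88 times the mean density of 1.01 per Mb. The density was 1.45 times the mean at 100 to 250 kb and 1.17 times at 500 kb to 1 Mb, and it came to 1.03 times the mean at 1 to 2 Mb. Beyond that it stayed between 1.03 and 1.04 times the mean out to 20 Mb. Leaving out peaks over input regions gave 1.84 times the mean at 10 to 50 kb and 1.40 times at 100 to 250 kb. The density declined gradually over 1 Mb, with no step at the limit of 50 kb used for clusters below.

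**Figure D3:**
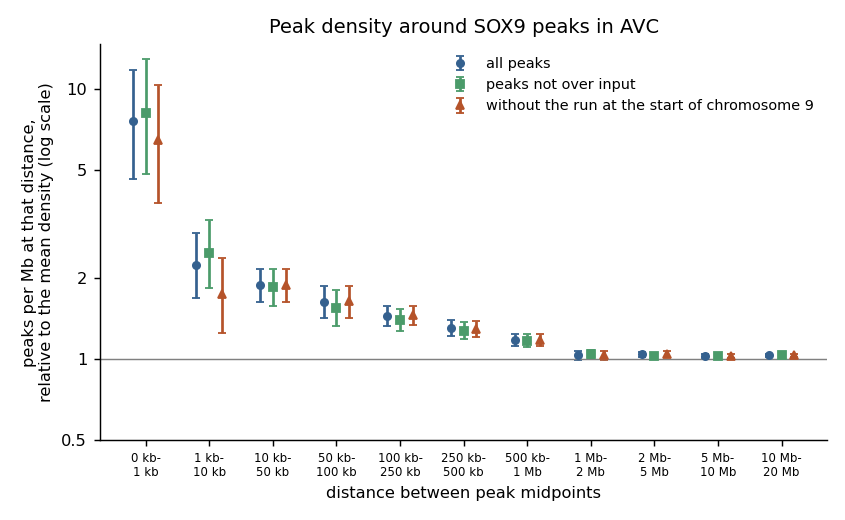
Density of peaks at a given distance from a peak, relative to the mean density of the list (log scale; bars, exact Poisson 95% interval of the number of pairs), for all peaks, for peaks not over input regions and without the 6 peaks at the start of chromosome 9. All 3 sets decline from above 6 times the mean within 1 kb to 1.03 or 1.04 times at 1 to 2 Mb.

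Higher peaks lay somewhat closer together relative to their own number. For peaks above the lowest height, the density at 100 to 250 kb was 1.85 times their own mean (interval 1.62 to 2.11), against 1.45 times for all peaks (1.33 to 1.57). At 10 to 50 kb it was 2.28 times (1.80 to 2.86) against 1.88 times (1.62 to 2.16), and these intervals overlapped. Among the 195 tall peaks there were 7 pairs at 10 to 50 kb, 11.97 times their mean density (0.91 per Mb, interval 0.36 to 1.87, against 0.08 per Mb), but none at 50 to 100 kb and 6 at 100 to 250 kb. Heights of neighbours were only weakly related. Spearman rho between the heights of successive peaks was 0.14 over 60 pairs within 10 kb, 0.16 over 175 pairs 10 to 50 kb apart and 0.23 over 165 pairs 50 to 100 kb apart. It was 0.07 over 787 pairs 100 to 500 kb apart and -0.01 over 1395 pairs more than 500 kb apart. The share of successive peaks that were both above the lowest height was 50.0% (Wilson interval 37.7 to 62.3) for 60 pairs within 10 kb and 29.2% (26.9 to 31.7) beyond 500 kb. For widths of successive peaks rho lay between -0.15 and 0.09 in every class of distance.

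Some neighbours lay only a few bases apart, and whether these are separate sites was not tested. The 22 distances of up to 1 kb had a median of 197 bp, shorter than most peaks are wide, and 5 were on chromosome 9 (4 of them in the run of peaks described below). The other 17 were spread over 13 chromosomes. The closest, between chr3:95428416-95428989 and chr3:95428999-95429439, left 9 bp between peaks that both had a height of 9. In 2 of the 22, the higher peak was at least 2 times the lower; at chr4:147999819-148000109 and chr4:148000840-148001141 the heights were 9 and 45.

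Clusters were made by chaining peaks with at most 50 kb between them. This gave 190 clusters of 2 or more peaks that held 425 peaks, 16.3% of the list (Wilson interval 15.0 to 17.8), while 2178 peaks stood alone. Most clusters were pairs, of which there were 159. There were 21 clusters of 3 peaks, 7 of 4, 2 of 5 and 1 of 6. The median span was 25.7 kb for pairs and 56.3 kb for the 31 clusters of 3 or more, and the longest cluster covered 109 kb. A peak over an input region occurred in 33 of the 190 clusters. The share of peaks over input regions was 9.18% in clusters (interval 6.79 to 12.3) and 8.40% outside (7.31 to 9.64), and these intervals overlapped.

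Circular shifts of the list along each chromosome gave no reference for these counts. A shift moves all peaks together and keeps every distance except the one at the point where the chromosome is cut, so the number of clusters can change only there. Working through every possible cut on the 21 chromosomes bounded the count between 169 and 198 clusters and the clustered peaks between 383 and 425. With the length of a chromosome taken as the span of AVC peaks alone, which joins the last peak to the first, the bounds were 186 to 215 clusters and 421 to 463 peaks. The share of sequence within 50 kb after a peak, given above, was therefore used as the background for the clusters.

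Clusters were not spread evenly over the autosomes. The share of peaks in clusters was highest on chromosome 18 (24.4%, Wilson interval 16.7 to 34.2), chromosome 8 (24.2%, 17.99 to 31.6) and chromosome 11 (23.8%, 17.8 to 31.2). It was lowest on chromosome 12 (5.94%, 2.75 to 12.4), where 101 peaks formed 3 clusters, and on chromosome 1 (6.47%, 3.65 to 11.2), where 170 peaks formed 5. Chromosome 8 also had the most input regions per Mb of the autosomes, at 7.52. Chromosome 7 had the fewest, at 4.18, and yet 23.3% of its peaks in clusters (17.7 to 30.1). Across the 19 autosomes the Spearman rho between the clustered share and input regions per Mb was 0.18. With peaks per Mb in place of input regions, rho was 0.67. Chaining at a fixed distance takes in more peaks where peaks are denser. The part of peak density in the differences between chromosomes was not tested.

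On autosomes rich in expressed genes, a larger share of peaks was in clusters and a larger share was tall. The 6 autosomes with most expressed genes per Mb (11, 19, 17, 7, 9 and 2) had 1.19 peaks per Mb, and 20.7% of their 855 peaks were in clusters (Wilson interval 18.1 to 23.5). The 6 with fewest (16, 3, 12, 1, 18 and 14) had 0.92 peaks per Mb, with 11.1% of 710 peaks in clusters (9.02 to 13.7). The share of distances within 50 kb was 2.14 times the share of sequence in the first set (interval 1.78 to 2.56) and 1.36 times in the second (1.02 to 1.81), with intervals that overlapped narrowly. Tall peaks made up 10.4% (8.54 to 12.6) and 6.06% (4.53 to 8.06). Input regions were nearly equally dense in both sets, at 5.66 and 5.39 per Mb. Without peaks over input regions the clustered shares were 19.2% and 10.5%. The ratios of distances to sequence were then 2.15 (1.76 to 2.62) and 1.37 (0.997 to 1.86). With peaks within 1 kb joined they were 1.96 (1.61 to 2.36) and 1.21 (0.89 to 1.64). In both cases the interval of the second set held 1. These sets were formed after the densities had been seen, and gene content, base composition and mappable length cannot be told apart by them. Chromosome 18 went against the pattern, with few expressed genes and the highest share of peaks in clusters.

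Peaks in clusters of 3 or more were less often at the lowest height than peaks in pairs, but this depended on the list and on the chaining distance, and for clustered peaks as a whole the interval of the difference from single peaks included 0. The lowest height was found in 39.8% of clustered peaks (Wilson interval 35.2 to 44.5) and 44.4% of single peaks (42.4 to 46.5), a difference of -4.68 percentage points whose Newcombe interval (-9.68 to 0.48) included 0. With a shorter chaining distance it was larger, at -9.93 points with 25 kb (-16.1 to -3.28) and -13.6 points with 10 kb (-21.7 to -4.32), and both intervals excluded 0. The intervals of pairs and single peaks overlapped, with pairs at 45.3% at the lowest height (39.9 to 50.8) and 5.97% tall (3.86 to 9.14), against 7.21% tall among single peaks (6.196 to 8.37). In clusters of 3 or more, 25 of 107 peaks were at the lowest height (23.4%, 16.4 to 32.2) and 19 were tall (17.8%, 11.7 to 26.1). Of these 19 tall peaks, 4 lay in the run on chromosome 9 described below. In clusters of 3 or 4 alone, 11 of 91 peaks were tall (12.1%, 6.89 to 20.4), an interval that overlapped those of pairs and single peaks. The difference in the share at the lowest height between clusters of 3 or more and pairs was -21.9 points (Newcombe interval -30.8 to -11.6). It was -20.0 points without peaks over input regions and -20.5 points without the run on chromosome 9. The interval included 0 with chaining at 25 kb (-13.9 points, -26.7 to 3.52) and at 10 kb (-20.2 points, -34.0 to 2.09). With only peaks above the lowest height, or of height 12 or more, clusters were formed anew and the share became that at height 9 or 12. The differences in these other shares were -2.52 points (-16.9 to 13.1) and -9.74 points (-31.2 to 11.96), with intervals that included 0. This contrast was drawn after the values had been seen, and the 107 peaks come from only 31 loci.

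**Figure D4:**
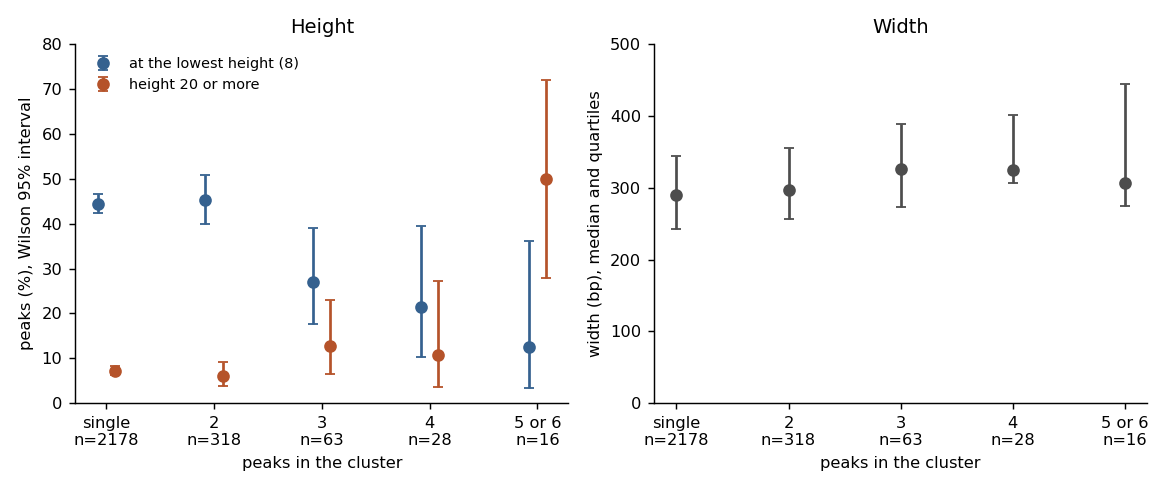
Left, share of peaks at the lowest height and share of tall peaks (Wilson 95% interval) by number of peaks in the cluster; right, width in bp (median and quartiles). The share at the lowest height goes from 45.3% in pairs to 27.0% in clusters of 3 and 21.4% in clusters of 4, and the group of 5 or 6 holds only 16 peaks from 3 loci.

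Tall peaks were found in 28 of the 190 clusters, and 8 clusters had 2 or more of them. Among the 159 pairs, 18 had a tall peak and 1 had a pair of tall peaks, while 10 of the 31 larger clusters had a tall peak. In 50 pairs neither peak was at the lowest height, in 74 pairs 1 was, and in 35 pairs both were. Of the 31 larger clusters 12 had no peak at the lowest height, and 1 consisted of such peaks alone. Seen from the peaks, the share that lay in a cluster rose little with height, from 14.9% at height 8 (12.9 to 17.0) to 18.6% at heights 20 to 39 (13.3 to 25.4) and 23.1% at 40 or more (12.6 to 38.3, 39 peaks), with overlapping intervals.

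With chaining at 50 kb, clustered peaks were somewhat wider. Their median width was 305 bp against 290 bp for single peaks, a difference of 15 bp (interval 3 to 31). It was 26 bp with chaining at 25 kb (6 to 40). The lower limit was negative with chaining at 10 kb (26 bp, -1 to 48) and at 100 kb (10 bp, -1 to 22). This also held for peaks of height 12 or more (13.5 bp, -16 to 66). At 50 kb the interval of each median, from order statistics, was 297 to 317 bp for clustered and 286 to 294 bp for single peaks. At a given height the median width was larger in larger clusters, with intervals that separated only at heights 9 to 10. Among peaks of height 9 to 10, the median was 288 bp for single peaks (interval 282 to 296), 302 bp in pairs (284 to 333) and 336 bp in clusters of 3 or more (302 to 386). At height 8 the medians were 279, 282 and 298 bp, with overlapping intervals. At height 20 or more they were 303, 303 and 329 bp, the last from 19 peaks.

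The cluster with most peaks lay at the start of chromosome 9 and was surrounded by input regions. Its 6 peaks spanned 5.10 kb at chr9:3009311-3014411, with heights of 26, 12, 21, 17, 23 and 21 in order along the chromosome, so that 4 were tall. No peak of it overlapped an input region by position. Even so, 52 input regions lay within 100 kb of it, between chr9:2999997-3001226 and chr9:3037996-3039279, and 1 of them lay between its peaks. These input regions had a median height of 74 and reached 268, against a median of 21 and a 99th percentile of 84.8 over the input list. Signal without precipitation was thus high at this locus. Mouse chromosomes have their centromere at this end. Without these 6 peaks there were no tall pairs 1 to 10 kb apart, where the full list had 6, and the density of peaks above the lowest height at 1 to 10 kb went from 3.73 to 2.15 times their mean.

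Both clusters of 5 peaks and 3 of the 7 clusters of 4 peaks, those with the largest summed heights, are described next. At chr2:84510831-84575022 (64.2 kb) the 5 peaks had heights of 17, 9, 13, 49 and 29, and the nearest input region was 22.3 kb away. The 2 tall peaks of this cluster, at chr2:84555619-84555968 and chr2:84574758-84575022, were 18.8 kb apart. At chr7:26004126-26083224 (79.1 kb) the heights were 54, 8, 21, 8 and 18. Its last 2 peaks overlapped input regions, but the peaks of height 54 and 21 did not. At chr17:71312871-71397516 (84.6 kb) 4 peaks had heights of 19, 20, 29 and 10, with the nearest input region 31.8 kb away. A second cluster of chromosome 7, chr7:52104101-52185387 (81.3 kb), held heights of 13, 23, 8 and 9, and a cluster at chr19:6046604-6140996 (94.4 kb) held 14, 12, 8 and 15. For these the nearest input regions were 316 and 189 kb away. The other 4 clusters of 4 peaks were lower, with highest peaks of 12, 12, 10 and 9, and 3 of them held a peak over an input region. Of the 9 clusters of 4 or 5 peaks, 4 had a peak over input, but a cluster of more peaks has more that can overlap. By peak, the share over input was 10.7% in clusters of 4 (Wilson interval 3.71 to 27.2) and 12.5% in those of 5 or 6 (3.50 to 36.0). Both intervals held the 8.53% of the whole list. In the first 4 clusters described here the tallest peak was more than 2 times as high as the lowest.

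**Figure D5:**
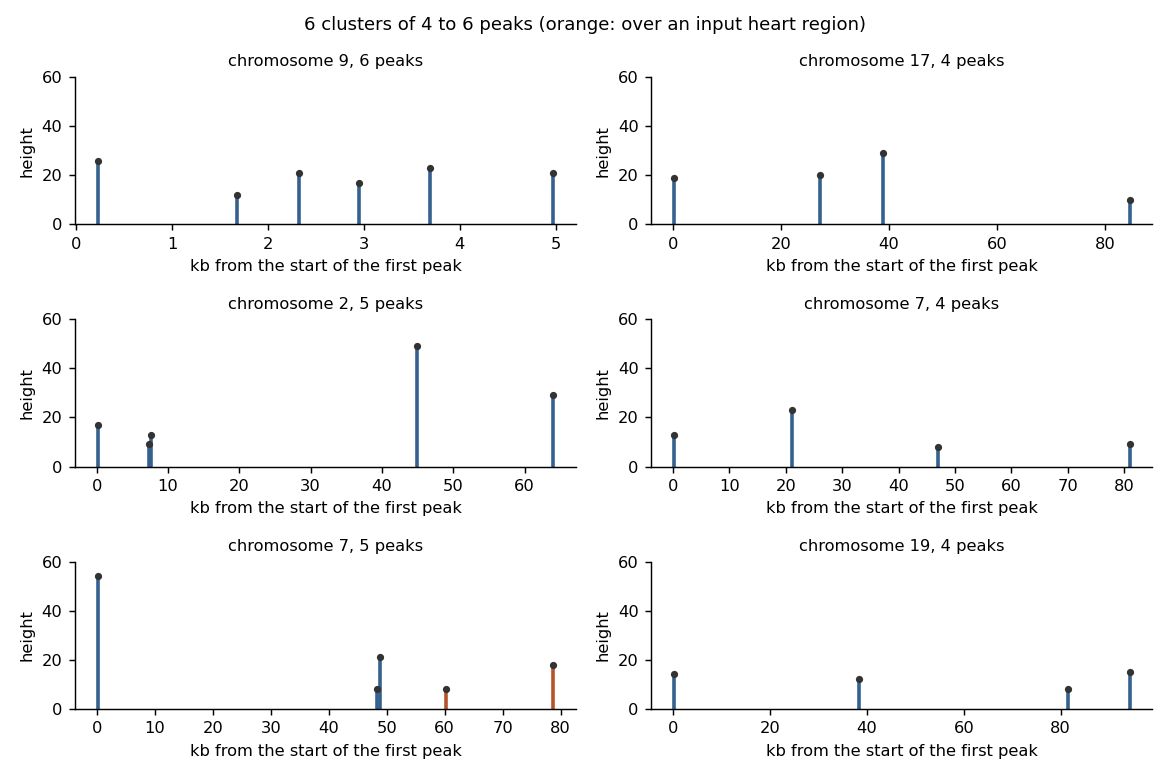
Peaks of the cluster of 6, both clusters of 5 and the 3 clusters of 4 peaks with the largest summed heights (4 lower clusters of 4 are not drawn), each drawn at its midpoint in kb from the start of the first peak, with its height (authors' value) on the vertical axis; orange marks peaks over an input region. The run on chromosome 9 covers about 5 kb, the others 64.2 to 94.4 kb, and the highest peaks reach 54 on chromosome 7 and 49 on chromosome 2.

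Over longer stretches, peaks were spread unevenly but over nearly all of the autosomes. In 486 autosomal windows of 5 Mb the number of peaks had a mean of 5.09 and an SD between windows of 2.94, so the variance was 1.69 times the mean. No peak fell in 10 windows, among them the first windows of chromosomes 3, 4 and 14. Windows were counted from base 1. On chromosomes 2, 7, 9, 17 and 19 the first region of any list started between bases 2999997 and 3287295. First windows there thus held less sequence with listed regions, and they were kept in these values. The 39 windows with 10 or more peaks (8.02% of windows) held 463 peaks, 18.7% of those in windows. In them 10.2% of peaks were tall, against 6.97% elsewhere. The densest window, chr8:85000001-90000000, had 21 peaks, of which 10 were in clusters, 4 were tall and 2 overlapped input regions. It was followed by chr7:25000001-30000000 with 16 peaks, which contains the cluster headed by the peak of height 54. With 15 peaks each came chr7:50000001-55000000, chr8:125000001-130000000, chr10:80000001-85000000, chr11:65000001-70000000 and chr19:5000001-10000000, and the window on chromosome 8 among these also held 70 input regions and no tall peak. The windows rich in peaks had a median of 34 input regions against 25 in the others, and the Spearman rho between peaks and input regions over the 486 windows was 0.42. The part of what raises the input in the dense windows was not tested.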

How the data were processed

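Regions bound by SOX9 in AVC (1 sample) were taken from the peak list the authors deposited, which gives a chromosome, start, end and whole-number height per peak, here treated as signal. BWA and the build mm9 are named in the submitters' processing notes. The sources used here do not give the peak caller, the threshold, any control subtraction or the read depth. Per the file headers, the authors normalized FPKM further (nFPKM) and merged the duplicates. The deposited log2 fold change was not used.

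Starts were converted to count from 1. Peaks within 50 kb, end to start, were chained. Overlap with input meant at least 1 bp. Chromosome lengths were the spans of the regions in the 3 lists. Wilson, Newcombe, Poisson and order-statistic intervals are at 95%. No test was made with 1 sample. RefSeq chromosome names (table of GRCm38.p6) were used without coordinates. Named regions were the 10 tallest and 3 widest peaks, the 6 clusters with most peaks (ties broken by the larger sum of heights, which chose 3 of 7 clusters of 4), the longest gaps, the densest windows and the extreme chromosomes; others were chosen after their values were seen. The list and the comparisons were chosen with earlier results of these data known. Intervals came from scipy 1.17.1 under Python 3.11.15 (numpy 2.4.6; pandas 2.3.3), with figures from matplotlib 3.10.9. Functions were tested on simulated data.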

Additional observations from a re-analysis of the deposited data

How the results depend on the processing

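Of 71 values under alternative settings, 53 stayed within the interval of the main value (within 1.5 times for counts) and 18 did not. With peaks above the lowest height, the difference in the share at the lowest height between clustered and single peaks changed sign. Its main value was -4.68 points. The height threshold and the chaining distance moved the clusters most. With peaks above the lowest height there were 77 clusters with 12.01% of peaks, and with peaks of height 12 or more 15 clusters with 7.13%. Chaining at 10, 25 and 100 kb gave 51, 108 and 301 clusters with 4.26%, 8.87% and 26.9% of peaks. The share of distances up to the chaining distance, relative to the share of sequence, was 2.48 above the lowest height, 4.15 at height 12 or more and 2.32 at 10 kb. All 6 peaks of the chromosome 9 run have a height of at least 12 and entered each of these ratios. The run was left out only with the full list and chaining at 50 kb. The difference in the share at the lowest height between clustered and single peaks was 1.27 points above the lowest height (the lowest height then being 9), -13.6 points at 10 kb and -9.93 points at 25 kb, and the latter 2 intervals excluded 0. Between clusters of 3 or more and pairs it was -2.52 points above the lowest height and -9.74 points at height 12 or more. The share was then that at height 9 or 12. Both intervals included 0, as did those at 10 kb and 25 kb. Peaks over input left out, midpoints, joined neighbours, chromosome 2 (the one with most peaks) left out and the chromosome 9 run left out moved none of these results outside the main interval. The last setting and the results on covered sequence and on clusters of 3 or more were added after seeing the data. No paired analysis was possible because each group had 1 sample. The list has no read depth, and peaks below a height of 8 are not in it, so distances and clusters describe listed peaks only.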
